A study of Homo sapiens with 8 samples.

Results

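Keratins are the intermediate filament proteins of epithelial cells, and their transcripts were followed here in a prostate cancer line exposed to an antiandrogen, to an EZH2 inhibitor, or to both. A gene was taken as a keratin when its symbol was KRT followed by 1 or 2 digits and an optional A, B or C. Keratin-associated proteins, pseudogenes and antisense transcripts were left out, and no level of expression was required. The rule took 54 of 26443 rows with values, of which 28 encode type I and 26 type II keratins. C4-2B, a derivative of the LNCaP prostate carcinoma line that grows under androgen deprivation, was used in every group, and all cells spent 7 days in their agent. The control group received DMSO, the vehicle. The ENZ group received ENZ, the usual short name of the antiandrogen enzalutamide, at 10 uM. The EPZ group received EPZ6438 (tazemetostat), which blocks the histone methyltransferase EZH2, at 1 uM. The Combination group received both, and its doses are not stated separately. Each of the 4 groups held 2 libraries.

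Keratin filaments are built from obligate pairs of a type I (acidic) and a type II (basic) protein. In the prostate, luminal secretory cells carry the simple-epithelial pair KRT8 and KRT18, commonly with KRT19, whereas basal cells carry KRT5 and KRT14 with KRT15 and KRT17. Other members belong to the upper layers of stratified epithelia, to the inner sheath of the hair root, or to the hair shaft and nail.

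Levels were deposited as FPKM, fragments scaled to gene length and library size. Estimated depth ran from 15400000 to 24400000 fragments, with both EPZ libraries deepest. Of 14 listed luminal markers, 12 were tested. The adhesion gene EPCAM stood at 58.8 to 97.7 FPKM and KLK3, which encodes prostate-specific antigen, at 223 to 2803 FPKM. Others on the list were low: CD24, not tested, ran from 0.187 to 2.34 FPKM and MSMB from 0.124 to 3.59 FPKM. TP63, which encodes the defining transcription factor of basal cells, was at 0 in both DMSO and both EPZ libraries and at most 0.0398 FPKM elsewhere. Marker lists of other cell types were mixed. Of 10 stromal markers, COL1A1 (2.24 to 10.5 FPKM) and TAGLN (2.47 to 14.5 FPKM) were tested and COL1A2 was at 0 in every library. Of 9 immune and endothelial markers CD68 was tested (6.43 to 12 FPKM) and PTPRC, the pan-leukocyte antigen gene, did not exceed 0.0412 FPKM. Of 8 neuroendocrine markers ENO2 was tested (1.26 to 8.27 FPKM) and CHGA did not exceed 0.114 FPKM. The part of these markers in the keratin results was not tested. Nothing in the labels says that the paired libraries of a group were grown apart. The p-values then describe only how far these libraries spread, a spread that may be technical.

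All 54 keratins lie in the 2 clusters known for the family (GRCh38, GENCODE 29). On chromosome 12, between 52168996 and 52952901, sit 27 genes, which are the 26 type II keratins and, at the edge, the type I gene KRT18. The other 27, all type I, lie on chromosome 17 between 40697991 and 41624842. RefSeq promoter windows (GRCh38.p14, from 250 bases before to 50 after the annotated start) were matched for 34 members, all on the minus strand. Of the tested keratins, KRT8 and KRT10 had a window, and KRT18, KRT19 and KRT80 had none. The string counts therefore come mostly from keratins too low to test. Of the 34 windows, 20 held the TATA-box string TATAAA or its reverse complement TTTATA, against 12% of 27305 promoters. The GC box GGGCGG (reverse complement CCGCCC) stood in 6 of the 34 windows, against 44.6% of promoters. The string AGAACA (reverse complement TGTTCT) stood in 5 windows, against 14.9% of promoters, and the AP-1 string TGANTCA, searched on both strands, in 0 windows, against 7.76%. No string contains another, although the 2 orientations of the TATA string can overlap and then count as 1 window. A match is a string of letters and not a bound site. The 250 bases before the start are shown for KRT10, a tested keratin with a TATA-box string, and for KRT73, which had the highest single value among the keratins too low to test. They are written 5′ to 3′ on the minus strand, on which both genes lie, with TATAAA in capitals.
KRT10, chr17:40822615-40822864: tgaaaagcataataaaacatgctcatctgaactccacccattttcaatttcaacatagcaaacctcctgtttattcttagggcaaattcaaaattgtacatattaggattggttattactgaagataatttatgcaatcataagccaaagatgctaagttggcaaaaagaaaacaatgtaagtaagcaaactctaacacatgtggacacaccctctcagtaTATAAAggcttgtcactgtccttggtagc
KRT73, chr12:52618560-52618809: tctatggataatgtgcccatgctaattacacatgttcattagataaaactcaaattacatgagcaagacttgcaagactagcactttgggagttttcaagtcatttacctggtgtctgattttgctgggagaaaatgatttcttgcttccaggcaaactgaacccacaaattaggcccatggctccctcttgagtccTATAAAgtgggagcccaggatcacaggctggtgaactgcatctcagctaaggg
The string begins 29 bases before the annotated start in KRT10 and 53 bases before it in KRT73. The matched KRT8 window, at an upstream alternative start, held none of the 4 strings.

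Only 5 keratins reached a mean of 1 FPKM over the 8 libraries and entered the tests: KRT8, KRT18, KRT19, KRT10 and KRT80. The other 49 were below it, 30 with a value above 0 in at least 1 library and 19 at 0 in all 8. Differences between groups are from limma on the log2(FPKM + 1) scale over 11874 genes, with a Benjamini-Hochberg adjusted p of 0.05 as the threshold, and they understate the change of genes near or below 1 FPKM. Folds are ratios of mean FPKM. The comparisons with DMSO share its 2 libraries. In Combination, the median difference of all tested genes from DMSO was -0.15, so a small fall there lies near the bulk of genes. In bulk samples such as these, fewer cells of a type and less RNA per cell cannot be told apart.

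**Figure D1:**
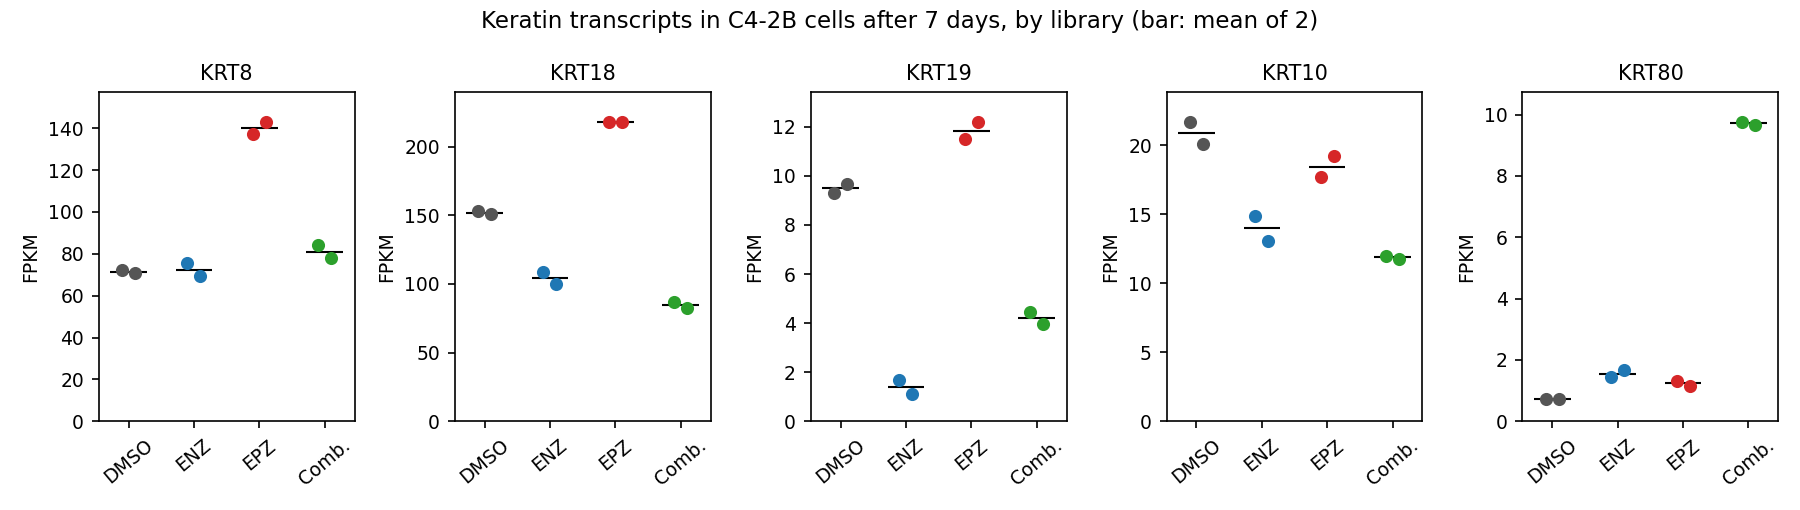
FPKM (vertical axes from 0) of the 5 tested keratins in each library (points) with the mean of the 2 libraries of a group (bars); Comb. is Combination. KRT8, KRT18 and KRT19 were highest in EPZ, KRT19 was lowest in ENZ, and KRT80 stood at 9.67 and 9.76 FPKM under Combination.

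The luminal pair was higher under EPZ alone, whereas ENZ alone was accompanied by less KRT18 and by KRT8 near its DMSO level. KRT8 (chr12:52897187-52949954, minus strand), the type II partner, stood at 72.2 and 70.9 FPKM under DMSO and at 75.7 and 69.2 FPKM under ENZ. In EPZ it stood at 137 and 143 FPKM, and in Combination at 84.1 and 78.1 FPKM. Both DMSO values lay inside the ENZ range, and both EPZ libraries lay above every other library. Against DMSO, KRT8 was 1.96-fold higher in EPZ (log2 0.96, SE 0.062, limma adjusted p = 2.92e-06). For ENZ the log2 difference was 0.016 (SE 0.062, limma adjusted p = 0.838). In Combination KRT8 was 1.13-fold higher (log2 0.18, SE 0.062, limma adjusted p = 0.023). That last call ended without the first DMSO library (limma adjusted p = 0.0675), the second (0.105) or the first Combination library (0.162). Under quantile normalization the Combination difference was 0.84, and the ENZ difference passed at 0.25 (limma adjusted p = 0.00693).

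KRT18 (chr12:52948871-52952901, plus strand), the type I partner of KRT8, was the most abundant keratin in all 8 libraries. It stood at 153 and 151 FPKM under DMSO, 109 and 99.7 FPKM under ENZ, 218 and 218 FPKM under EPZ, and 86.9 and 82.4 FPKM under Combination. The groups did not overlap, with EPZ highest, then DMSO, ENZ and Combination. KRT18 fell by 31.3% in ENZ (log2 -0.54, SE 0.057, limma adjusted p = 5.38e-05) and rose 1.43-fold in EPZ (log2 0.52, SE 0.057, limma adjusted p = 6.27e-05). In Combination it fell by 44.3% from DMSO (log2 -0.84, SE 0.057, limma adjusted p = 4.10e-07), and the difference shrank to -0.14 under quantile normalization (adjusted p = 0.0387). Its fall from ENZ to Combination (log2 -0.30, limma adjusted p = 0.00104) was not kept by other scalings, at -0.11 (adjusted p = 0.119) after median-of-ratios scaling and 0.13 (adjusted p = 0.0498) after quantile normalization. KRT8 and KRT18 lie on opposite strands, and their annotated 5′ ends overlap by 1084 bases. Of their 50-base exonic stretches, 16.1% of KRT8 and 24.5% of KRT18 occur in another annotated gene, largely their own pseudogenes and each other, and no source used here gives the strand setting of the counting.

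KRT19 (chr17:41523617-41528308, minus strand), a type I keratin of simple and ductal epithelia that lacks the usual tail domain, had the largest loss of the tested keratins under ENZ. Its values were 9.3 and 9.68 FPKM under DMSO, 1.69 and 1.12 FPKM under ENZ, 11.5 and 12.2 FPKM under EPZ, and 4.44 and 3.95 FPKM under Combination. The 4 groups did not overlap, and Combination lay between ENZ and DMSO. Against DMSO, KRT19 fell by 85.2% in ENZ (log2 -2.13, SE 0.11, limma adjusted p = 5.28e-07) and by 55.8% in Combination (log2 -1.02, SE 0.11, limma adjusted p = 1.16e-05). Between the 2 ENZ-containing groups it was 2.99-fold higher in Combination (log2 1.12, limma adjusted p = 1.02e-05). Its 1.25-fold rise in EPZ (log2 0.29, SE 0.11, limma adjusted p = 0.0453) was near the threshold. That call ended with a pseudocount of 0.1 (adjusted p = 0.113), with no filter on low values (0.129), and without either DMSO, either EPZ or either Combination library (0.052 to 0.183).

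KRT10 (chr17:40818117-40822595, minus strand), the type I keratin of suprabasal epidermis and the usual partner of KRT1, stood at 21.7 and 20.1 FPKM under DMSO, 14.9 and 13.1 FPKM under ENZ, 17.7 and 19.2 FPKM under EPZ, and 12 and 11.8 FPKM under Combination. Both ENZ-containing groups lay below the other two groups. KRT10 fell by 33% in ENZ (log2 -0.55, SE 0.077, limma adjusted p = 2.89e-04) and by 43.1% in Combination (log2 -0.76, SE 0.077, limma adjusted p = 7.64e-06). In EPZ the log2 difference was -0.17 (SE 0.077, limma adjusted p = 0.0822). A call between Combination and ENZ (log2 -0.22, limma adjusted p = 0.0297) ended under median-of-ratios scaling (-0.038) and quantile normalization (0.0022), and without the first ENZ or either Combination library. Its partner KRT1 had at most 2 estimated fragments in any library, so KRT10 transcripts were present with almost no KRT1 transcripts. KRT10 overlaps TMEM99, on the other strand, which stood at 7.54 to 11.4 FPKM across the libraries.

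KRT80 (chr12:52168996-52192000, minus strand), a type II keratin of many epithelia found near cell margins, moved most under the joint treatment. It stood at 0.733 and 0.734 FPKM under DMSO, 1.45 and 1.66 FPKM under ENZ, 1.32 and 1.15 FPKM under EPZ, and 9.76 and 9.67 FPKM under Combination. Both Combination libraries lay far above all others, and ENZ and EPZ lay above DMSO without overlapping it. KRT80 was 13.2-fold higher in Combination than in DMSO (log2 2.63, SE 0.086, limma adjusted p = 2.72e-09). It was 6.25-fold higher in Combination than in ENZ (log2 2.07) and 7.87-fold higher than in EPZ (log2 2.26), with limma adjusted p of 3.16e-08 and 1.77e-08. With ENZ alone it rose 2.12-fold (log2 0.56, SE 0.086, limma adjusted p = 4.60e-04), a difference of 0.27 under quantile normalization. With EPZ alone it rose 1.68-fold (log2 0.36, SE 0.086, limma adjusted p = 0.00538), and that call ended under quantile normalization (0.16, adjusted p = 0.147) and without the first EPZ library (adjusted p = 0.0503). Between EPZ and ENZ the log2 difference in KRT80 was -0.20 (SE 0.086, limma adjusted p = 0.0837).

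With 5 tested keratins, the number called in a comparison is read against the share of all genes called. In ENZ against DMSO 4 of the 5 passed, 1 higher and 3 lower, where 56.7% of 11874 genes passed, 27.9% higher and 28.8% lower. Quantile normalization adds KRT8 to the higher ones, for 2 higher and 3 lower. In EPZ against DMSO 4 of the 5 passed and all 4 were higher, where 55.8% of genes passed, 23.4% higher and 32.4% lower. In Combination against DMSO all 5 passed, 2 higher and 3 lower, where 80.8% of genes passed, 33.3% higher and 47.4% lower. With Combination against ENZ the 5 calls, 3 higher and 2 lower, stood beside 70.8% of genes, 25.3% higher and 45.5% lower. The calls for KRT18 and KRT10 ended under median-of-ratios scaling, which left 3 higher and 0 lower. With Combination against EPZ they were 1 higher and 4 lower, beside 72.8% of genes, 29.2% higher and 43.7% lower. Between EPZ and ENZ, KRT8, KRT18, KRT19 and KRT10 were higher in EPZ (log2 0.94, 1.06, 2.42 and 0.37), where 50.6% of genes passed and 20% were higher.

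**Figure D2:**
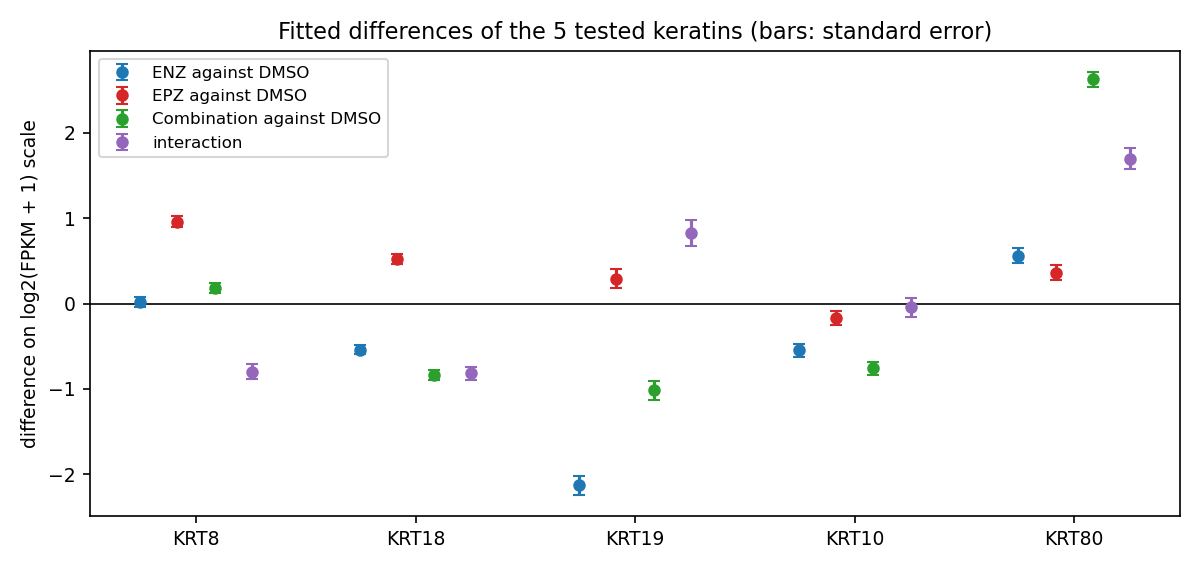
Fitted difference on the log2(FPKM + 1) scale (vertical axis) with its standard error (bars) for the 5 tested keratins in ENZ, EPZ and Combination against DMSO, and the interaction, which is Combination minus ENZ minus EPZ plus DMSO. KRT80 has a positive interaction of 1.70, and KRT8 and KRT18 negative ones of -0.80 and -0.82.

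The interaction asks whether the change with both agents differs from the sum of the changes with each. It passed for 4 of the 5 keratins, 2 positive and 2 negative, where 39.6% of genes passed, 9.99% positive and 29.6% negative. For KRT80 it was 1.70 (SE 0.12, limma adjusted p = 8.71e-06), since Combination lay above the sum of 2 small rises. For KRT8 it was -0.80 (SE 0.088, limma adjusted p = 1.15e-04): the EPZ rise was 0.96 without ENZ and 0.16 with it. That 0.16 (limma adjusted p = 0.04) missed the threshold with no filter, with only the compared groups fitted, and in 6 of 8 fits that left out a library. The size of this KRT8 rise with ENZ present depended on scaling. It was larger under quantile normalization, by the KRT8 differences from DMSO given above. For KRT18 the interaction was -0.82 (SE 0.081, limma adjusted p = 6.12e-05). EPZ went with a rise in KRT18 of 0.52 without ENZ and a difference of -0.30, whose sign depends on scaling, with ENZ. KRT19 had a positive interaction of 0.83 (SE 0.15, limma adjusted p = 0.00238), its difference with EPZ being 0.29 without ENZ and 1.12 with it. For KRT10 the value was -0.043 (SE 0.11, limma adjusted p = 0.786).

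The balance of the 2 filament types differed between the groups. Summed over all type I keratins, FPKM were 182 ± 1.96 under DMSO, 120 ± 8.39 under ENZ, 249 ± 1.36 under EPZ and 101 ± 3.53 under Combination (mean ± SD, n = 2). The type II sum was 72.6 ± 0.805, 74.3 ± 4.46, 143 ± 3.68 and 92.6 ± 4.49 FPKM in the same order. Type I transcripts therefore stood at 2.51 times the type II sum with DMSO, 1.61 times with ENZ, 1.74 times with EPZ and 1.09 times with both agents. The ratio of KRT18 to KRT8, which does not depend on how a library is scaled, was 2.12 and 2.13 under DMSO, 1.44 in each ENZ library, 1.59 and 1.53 under EPZ, and 1.03 and 1.06 under Combination. No library of one group reached the ratio of another, and the ratio itself was not tested. KRT8 and KRT18 together made up 87.6% of keratin FPKM with DMSO, 91.1% with ENZ, 91.4% with EPZ and 85.5% with both agents. KRT80 made up 1.01% of the type II sum with DMSO, 2.1% with ENZ, 0.864% with EPZ and 10.5% with both agents.

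**Figure D3:**
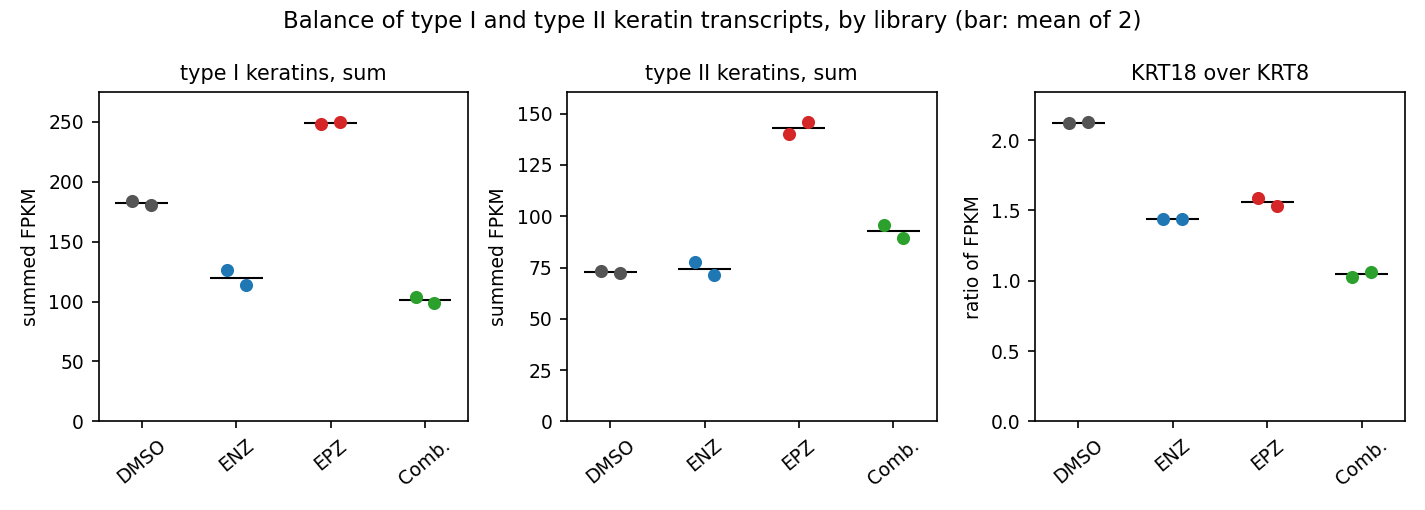
Summed FPKM of type I keratins, summed FPKM of type II keratins and the ratio of KRT18 to KRT8 (vertical axes from 0) in each library (points) with the mean of 2 libraries (bars); Comb. is Combination. The ratio is above 2.1 under DMSO and falls to 1.03 and 1.06 under Combination.

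Of the 49 keratins below the mean of 1 FPKM, 30 had a value in some library. Above 0 were 8 and 7 of these 30 under DMSO, 6 and 6 under ENZ, 18 and 16 under EPZ, and 23 and 19 under Combination. Over all 9152 genes below that mean with a value in some library, the share above 0 was 51.6% and 55.5% with DMSO, 60.8% and 62.3% with ENZ, 69% and 66.5% with EPZ, and 75.5% and 71.6% with both agents. Detection was higher in the EPZ and Combination libraries than in DMSO both for low keratins and over all low genes. The step was larger for the keratins. Under ENZ the keratin counts were lower than under DMSO, whereas the share over all low genes was higher. No test was made of the keratin counts. Counting all 54, 13 and 12 members had a value above 0 in the DMSO libraries, 11 and 11 under ENZ, 23 and 21 under EPZ, and 28 and 24 under Combination. For 22 of the low keratins the FPKM stood in whole steps that fit an annotated transcript length, which gives estimated fragments. These 22 held 13 and 22 fragments in the DMSO libraries, 17 and 15 under ENZ, 117 and 98 under EPZ, and 87 and 62 under Combination. In EPZ, 59 and 41 of them belonged to KRT73 and 14 and 23 to KRT72. Estimated depth was 15400000 and 20300000 fragments for DMSO, 19300000 and 21800000 for ENZ, 24400000 and 22300000 for EPZ, and 19300000 and 16400000 for Combination, and its part in these counts was not tested. A count of 0 allows up to 3 fragments, which in a transcript of 2 kilobases is 0.0615 to 0.0972 FPKM depending on the library, for counting error alone.

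**Figure D4:**
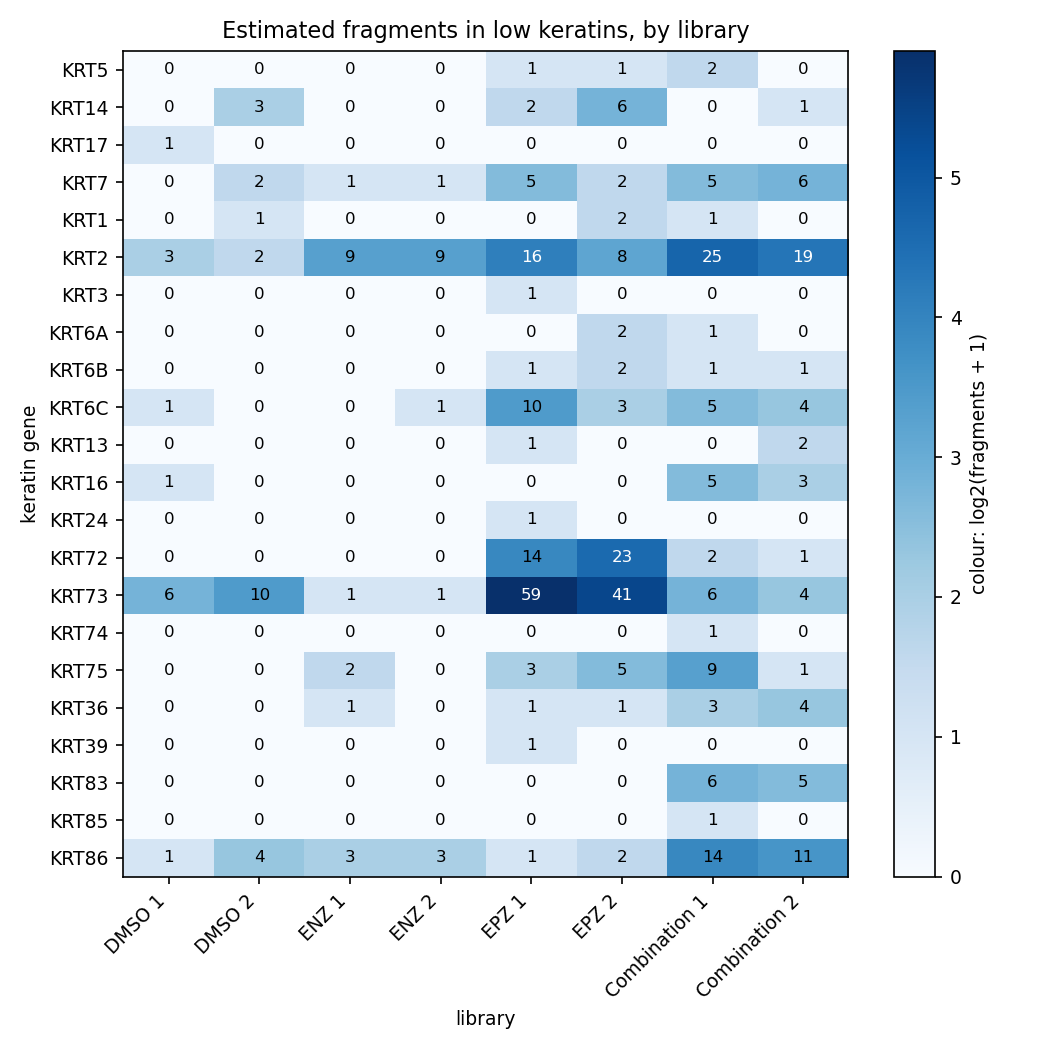
Estimated fragments (numbers in the cells) in 22 low keratins (rows) in each library (columns), with colour showing log2(fragments + 1). KRT73 and KRT72 are highest in EPZ, and KRT86, KRT83 and KRT2 under Combination.

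Basal keratins stayed near 0 in every group. KRT5, the type II keratin of basal cells, had 1 fragment in each EPZ library, 2 in the first Combination library and 0 in the other 5 libraries. KRT14, its type I partner, had 0 and 3 fragments under DMSO, 0 in both ENZ libraries, 2 and 6 under EPZ, and 0 and 1 under Combination. KRT17 had a single fragment, in the first DMSO library. KRT15 ranged from 0 to 0.166 FPKM, at 0 in both ENZ libraries and above 0 in both EPZ and both Combination libraries. Summed, the 4 basal keratins gave 0.0764 to 0.0904 FPKM under DMSO, 0 under ENZ, 0.224 to 0.232 FPKM under EPZ and 0.101 to 0.203 FPKM under Combination, against 165 to 373 FPKM for the 5 simple-epithelial keratins across all libraries. With no filter on low values, none of the 4 basal keratins passed in any of the 7 comparisons. The 15 other basal markers did not share the low level of the basal keratins: summed, they stood at 33.2 to 33.6 FPKM under DMSO, 51.2 to 52.7 under ENZ, 28.6 to 29.2 under EPZ and 53.8 to 56.1 under Combination, with 4 of them tested.

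The other 2 simple-epithelial keratins were also low. KRT7, a type II keratin of ductal epithelia, had 0 and 2 fragments under DMSO, 1 and 1 under ENZ, 5 and 2 under EPZ, and 5 and 6 under Combination. KRT20, a type I keratin of gut and bladder surface cells, was at 0 in both DMSO libraries, at most 0.0248 FPKM under ENZ and EPZ, and at 0.0718 and 0.0677 FPKM under Combination. Among stratified-epithelium keratins, KRT2, a type II keratin of the upper epidermis, had 3 and 2 fragments under DMSO, 9 and 9 under ENZ, 16 and 8 under EPZ, and 25 and 19 under Combination. The Combination libraries were highest for KRT2 and did not overlap the rest. KRT6C had 1 and 0 fragments under DMSO, 0 and 1 under ENZ, 10 and 3 under EPZ, and 5 and 4 under Combination, and KRT16, a stress-induced type I keratin, had 5 and 3 under Combination and at most 1 elsewhere. Of the KRT6C exonic 50-base stretches, 44.4% occur in another gene, so fragments of the KRT6 genes cannot be told apart with confidence.

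KRT73 and KRT72, neighbouring type II keratins of the inner root sheath of hair, were highest with EPZ alone. KRT73 (chr12:52607570-52618559), whose upstream sequence is shown above, stood at 0.17 and 0.216 FPKM under DMSO, 0.0227 and 0.0201 under ENZ, 1.06 and 0.804 under EPZ, and 0.136 and 0.107 under Combination. These values rest on 6 and 10, 1 and 1, 59 and 41, and 6 and 4 estimated fragments. The EPZ libraries lay above all others and the ENZ libraries below all others. In mean FPKM, KRT73 was 4.83-fold higher in EPZ than in DMSO. KRT72 (chr12:52585589-52601538), which ends 6031 bases from KRT73, had no fragment in any DMSO or ENZ library, 14 and 23 under EPZ, and 2 and 1 under Combination. Both overlap KRT73-AS1, a transcript of the other strand that was at 0 in 5 libraries and at 0.0323 and 0.118 FPKM under EPZ, and 31.1% of the KRT73 exonic 50-base stretches occur in it. KRT75, of the companion layer, had 9 fragments in the first Combination library and at most 5 in the others.

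The summed level of hair shaft and nail keratins was highest in Combination, from a very low base, and a few genes carried it. The 17 of them summed to 0.0512 to 0.143 FPKM under DMSO, 0.0658 to 0.106 under ENZ, 0.0923 to 0.212 under EPZ and 0.748 to 0.855 under Combination, and 8 were at 0 in all libraries. KRT86, a type II keratin of the hair cortex, had 1 and 4 fragments under DMSO, 3 and 3 under ENZ, 1 and 2 under EPZ, and 14 and 11 under Combination. KRT83, a close relative, had 6 and 5 fragments under Combination and 0 in the other 6 libraries. KRT81, of the same kind, was at 0.0815 and 0.192 FPKM under Combination and at 0 elsewhere. KRT86 and KRT81 overlap on opposite strands, and 30.8% of the KRT86 stretches occur in KRT81, so their values are uncertain one against the other. Not all hair keratins were highest in Combination. KRT32 was highest in the first EPZ library (0.143 FPKM), KRT39 had a value only there (0.0242 FPKM), and KRT33B only in the first DMSO library (0.0202 FPKM). These 3 were named after their values were seen.

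When the fit was repeated with no filter on low values, 35 keratins were tested among 21026 genes. In Combination against DMSO 13 of the 35 passed, where 58.9% of genes passed, and 10 were higher, where 31.5% of genes were. Of the 13, 8 were low keratins and all 8 were higher: KRT2, KRT86, KRT83, KRT7, KRT81, KRT36, KRT16 and KRT20, of which KRT36 is named because it passed. Their log2 differences ran from 0.10 for KRT20 to 0.51 for KRT2, and KRT86 stood at 0.33 (SE 0.034, limma adjusted p = 2.77e-04). The KRT7 call ended without the first DMSO (limma adjusted p = 0.0559) or the second Combination library (0.0615), and that of KRT81 without the first (0.0576) or the second DMSO library (0.057). In Combination against ENZ 11 of the 35 passed (49% of genes), and in Combination against EPZ 14 of the 35 (51.6% of genes). In EPZ against DMSO 6 of the 35 passed, where 31% of genes did, among them KRT73 (log2 0.69, SE 0.064, limma adjusted p = 8.22e-04), KRT72 (0.48, adjusted p = 0.00433) and KRT2 (0.19, adjusted p = 0.0443). The KRT2 call ended in 7 of the 8 fits that left out a library. In ENZ against DMSO 5 of the 35 passed, where 32.3% of genes did, and KRT73 was the only low one (log2 -0.22, limma adjusted p = 0.0422), a call that ended under median-of-ratios scaling (adjusted p = 0.0534) and without either DMSO, either ENZ or either Combination library. The interaction passed for 9 of the 35, where 23.3% of genes did, including KRT86 (0.36), KRT83 (0.22), KRT16 (0.20), KRT72 (-0.42) and KRT73 (-0.56). The KRT73 interaction missed the threshold with a pseudocount of 0.1 (-0.94, adjusted p = 0.0741), and that of KRT72 missed it in 6 of 8 fits that left out a library. That of KRT16 missed it without the first (limma adjusted p = 0.0551) or the second EPZ library (0.0613). Against groups at 0 these differences depend on the pseudocount and are not a measure of fold. A group at 0 in both libraries adds no spread to the shared estimate. The p-values of such low keratins therefore do not cover the counting error of a few fragments.

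Keratin filaments are anchored at desmosomes and hemidesmosomes, and 17 of 25 such anchor genes were tested. Over all tested genes 27.9% were higher and 28.8% lower in ENZ against DMSO, 23.4% and 32.4% in EPZ, and 33.3% and 47.4% in Combination. Of the 17 anchor genes, 6 were higher and 4 lower in ENZ against DMSO, 5 higher and 4 lower in EPZ, and 8 higher and 5 lower in Combination, with medians of 0.16, 0.053 and 0.16 against 0.0049, -0.046 and -0.15 over all genes. Median-of-ratios scaling made the EPZ split 6 higher and 3 lower, and quantile normalization made that of Combination 9 and 3. DSP, which encodes desmoplakin, the plaque protein that ties keratins to desmosomes, rose by 0.63, 0.61 and 1.02 in the 3 comparisons, to 56.5 and 55.1 FPKM under Combination from 26.9 and 27.1 FPKM under DMSO. ITGB4, the hemidesmosome integrin gene, rose by 1.69 under ENZ and 2.12 under Combination, with 0.042 (limma adjusted p = 0.73) in EPZ. PKP3, a desmosomal plakophilin gene, fell in all 3 (-0.70, -0.48 and -1.30). PPL, the periplakin gene, rose by 0.63 under ENZ and 1.22 under Combination, with 0.22 (limma adjusted p = 0.0504) in EPZ.

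Among other intermediate filament genes, 7 of 16 were tested. The counts were 2 higher and 2 lower in ENZ, 0 higher and 3 lower in EPZ, and 4 higher and 3 lower in Combination, with medians of 0.087, -0.078 and 0.37. The shares over all genes are those given for the anchor genes. Quantile normalization made the splits 1 and 1 with ENZ, 1 and 3 with EPZ and 3 and 3 with both agents, with a Combination median of 0.10. The nuclear lamin gene LMNB1 fell by 0.37, 1.42 and 3.90 on the log2 scale, to 4.04 and 4.7 FPKM under Combination from 80.7 and 77.7 FPKM under DMSO, and LMNB2 fell by 0.43, 0.99 and 2.09. The ENZ value of LMNB1 missed the threshold under quantile normalization (-0.15, limma adjusted p = 0.114). VIM, which encodes the mesenchymal filament protein vimentin, rose by 0.98 under Combination, with 0.11 (limma adjusted p = 0.165) in ENZ and -0.078 (0.333) in EPZ. NES, which encodes nestin, fell by 0.51 under EPZ and 1.57 under Combination. The stromal marker sum was 5.03 to 5.92 FPKM with DMSO, 7.87 to 8.93 with ENZ, 8.91 to 9.91 with EPZ and 25.7 to 25.8 with both agents, nearly all of it COL1A1 and TAGLN, and its part in the VIM result was not tested.

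Of 21 transcription factor genes tied to keratin expression in skin, hair or simple epithelia, 14 were tested. In ENZ 7 were higher and 3 lower, in EPZ 6 and 2, and in Combination 10 and 3, with medians of 0.14, 0.090 and 0.89. The shares over all genes are again those given for the anchor genes, 33.3% higher and 47.4% lower in Combination. Quantile normalization made the ENZ split 5 and 4. ELF3, an epithelium-specific ETS factor gene, stood at 3.93 and 3.19 FPKM under DMSO, 10.5 and 9.62 under ENZ, 7.36 and 7.05 under EPZ, and 36.5 and 37.4 under Combination, with an interaction of 0.93 (SE 0.12, limma adjusted p = 2.83e-04). LEF1, a hair-follicle factor gene of the Wnt pathway, stood at 1.18 and 1.24, 1.68 and 1.89, 1.25 and 1.14, and 7.74 and 8.3 FPKM in the same order, with an interaction of 1.71 (SE 0.12, limma adjusted p = 8.54e-06). DLX3, a homeobox gene of epidermis and hair, stood at 0.174 and 0.0947, 0.957 and 1.36, 0.299 and 0.189, and 3.97 and 3.76 FPKM. Its interaction was 1.05 (SE 0.17, limma adjusted p = 9.61e-04). The mean of DLX3 over all libraries reached 1 FPKM only through Combination, and it was named by its p. Its interaction, and its place in the Combination count and median, therefore carry no independent weight. HOXC13, which is needed for hair keratin expression, rose in both ENZ-containing groups, by 1.15 under ENZ and 1.65 under Combination. Its difference in EPZ was 0.035 (limma adjusted p = 0.732), and its interaction was 0.47 (SE 0.11, limma adjusted p = 0.00991). These 4 genes were named by their small p, and all rose in Combination. The 3 that fell there were EHF (log2 -0.99), OVOL2 (-0.92) and KLF5 (-0.68), named here because they fell.

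**Figure D5:**
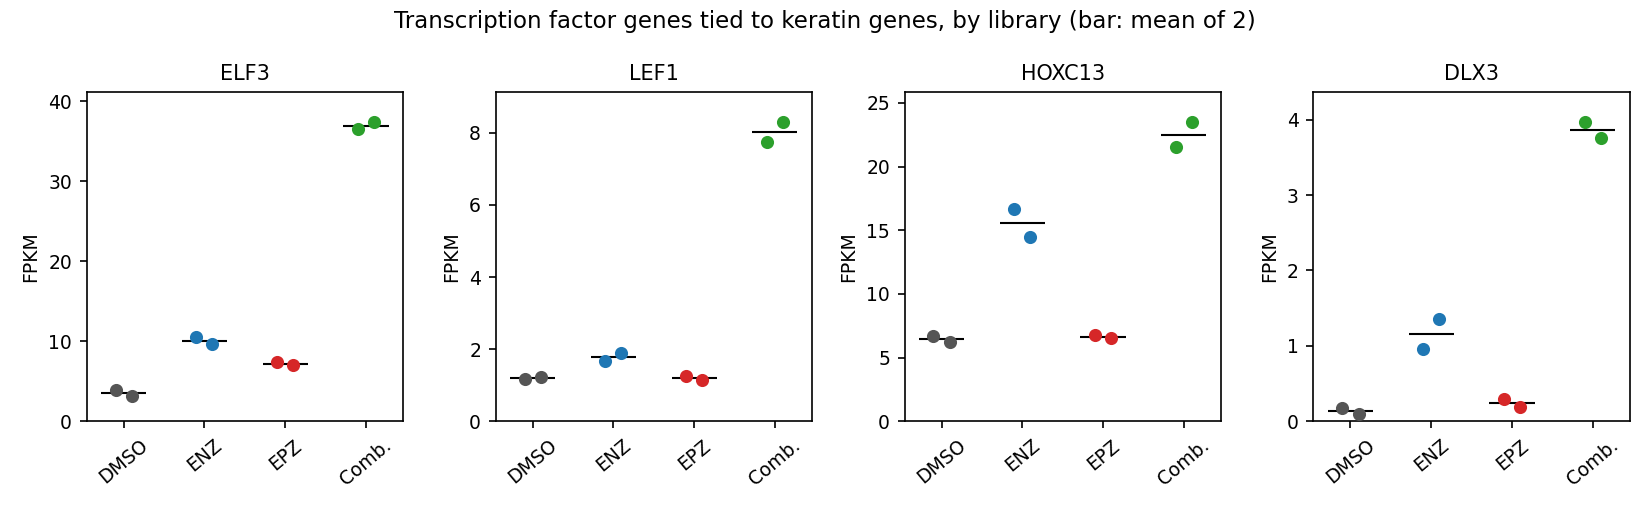
FPKM (vertical axes from 0) of 4 transcription factor genes in each library (points) with the mean of 2 libraries (bars). Comb. is Combination, and the 4 were those listed with the smallest p against DMSO. All 4 are highest in Combination, and HOXC13 is higher in ENZ and Combination than in DMSO and EPZ.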

How the data were processed

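Total RNA from 8 C4-2B samples was sequenced from NEBNext Ultra libraries on an Illumina HiSEQ4000, per the labels' protocols. FPKM for 26475 rows were deposited by the authors. STAR and hg38 are named in the submitters' processing notes, and no source used here names the counter, annotation or strand setting.

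The authors' FPKM were used unscaled. limma 3.58.1 (R 4.3.3) was fitted to log2(FPKM + 1) of the 11874 genes whose mean reached 1 FPKM, with 4 groups sharing the spread and a variance trend (4 residual and 5.47 prior degrees of freedom). Moderated two-sided p-values were adjusted by Benjamini-Hochberg within each of 7 comparisons. The fit was also run on simulated data with normal noise, in which 67, 67 and 66 of 11874 genes were changed 1.5-, 2- and 4-fold. It recovered 85.1%, 92.5% and 98.5% of them, and 5.15% of its calls were false. Far more genes passed in the real data, so these rates need not hold there. FPKM hold no totals, so fragments were estimated from whole steps between low values, where 92.6% to 96% of 801 to 1314 low genes stood in whole ratios within 0.04%. Their scale came from 569 single-transcript genes, 54.8% within 5% of the median. A fragment in 1 kilobase was worth 0.041 to 0.0648 FPKM.

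Positions and shared 50-base stretches used GENCODE 29. Named keratins were those with a mean of 1 FPKM in any group and up to 3 of each class by level, and listed genes up to 4 per list with the smallest p against DMSO. One listed marker is not reported here. Members, lists and tests were chosen with earlier results of these data known. Deviations of same-numbered libraries were weakly correlated between groups (-0.0153 to 0.109), which cannot show whether the replicate numbers pair samples. The rest used pandas 2.3.3, matplotlib 3.10.9 and numpy 2.4.6 in Python 3.11.15.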

Additional observations from a re-analysis of the deposited data

Results flagged for a closer look

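The effect of EPZ on 4 keratins differed by a test between cells without and with ENZ. This interaction, on the log2(FPKM + 1) scale with n = 2 libraries a group, was 1.70 for KRT80 and 0.83 for KRT19, where the EPZ difference was larger with ENZ present. It was -0.80 for KRT8 and -0.82 for KRT18, where the EPZ difference was smaller with ENZ present. For KRT18 that difference with ENZ present was -0.30, and its sign depended on scaling (-0.11 under median-of-ratios scaling and 0.13 under quantile normalization). The 4 values kept their sign and passed limma's adjusted threshold under every alternative tried for them.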

How the results depend on the processing

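Of 513 alternative values for the 5 tested keratins, 473 kept their direction and side of the threshold, 28 lost a call, 4 gained one and 8 reversed. The reversals were KRT18 and KRT10 in Combination against ENZ under quantile normalization (0.13 and 0.0022), and, among uncalled values, the KRT10 interaction under median-of-ratios scaling (0.083) and quantile normalization (0.049). Leaving out a library moved the KRT10 interaction between -0.13 and 0.047, and KRT8 in ENZ against DMSO between -0.047 and 0.08. The number of keratins called with no filter on low values was 13 of 35 in Combination against DMSO, 11 in Combination against ENZ, 14 in Combination against EPZ and 9 for the interaction, since more genes enter the fit. In Combination against ENZ it was 3 under median-of-ratios scaling and 3 with only the compared groups fitted, and the cause was not tested. Leaving out a library gave 2 to 5 calls in EPZ against DMSO, with 2 without the first EPZ library, and 3 to 4 in Combination against ENZ. An arm left with 1 library was assumed to vary like the others. Of 360 values for low keratins with no filter, alternatives added after seeing the data, 36 lost a call and 0 reversed. For listed genes 516 of 531 stayed, and 6 uncalled EPZ values reversed: ITGB4 (-0.072) and DLX3 (-0.19) under quantile normalization, LEF1 under median-of-ratios scaling (0.02) and, without a library, between -0.047 and 0.026, and HOXC13 between -0.011 and 0.082. Median-of-ratios scaling brought the all-gene median in Combination against DMSO from -0.15 to 0.0024 and the sums to 175 (DMSO) and 110 FPKM (Combination) for type I and 69.7 and 101 FPKM for type II.

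The replicate number is not known to pair samples. With it as a block, the numbers of keratins called were 4 in ENZ, 4 in EPZ and 5 in Combination against DMSO, and 4 for the interaction. These were the same counts as without the block. Low keratins rest on few fragments, which limits their precision.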
